A study of Sus scrofa with 15 samples.

Results

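Defect was set against normal penile corpus cavernosum of the pig (Sus scrofa), the spongy vascular tissue of the penis, by sequencing of polyadenylated RNA. The comparison holds the 3 libraries labelled defect and the 3 labelled normal, 6 of the 15 libraries of the series, and all 26654 genes of the count table, of which 17855 had enough counts to be tested. The study's design asks for this pair, and for implantation A, in pairwise comparisons. The labels give both groups the same tissue and no strain, age, sex, treatment or time. They do not say how the defect was made, how long it had stood, or whether each library of a group comes from its own animal, so p-values measure only how these libraries vary, part or all of which may be technical.

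The corpus cavernosum is a meshwork of smooth muscle and collagen around blood spaces lined by endothelium, wrapped in the dense collagen of the tunica albuginea. Erection follows when nitric oxide from nerves and endothelium relaxes the muscle and the spaces fill. In wounded tissue, incoming leukocytes secrete proteases and defence proteins, and fibroblasts then lay down collagen with the proteoglycans and glycoproteins that space and anchor its fibrils. Each of these cell types brings its own transcripts, and in bulk tissue fewer cells of a type cannot be told apart from less RNA per cell.

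Depth was very uneven within the defect group. Defect 1 and defect 2 held 207769 and 250178 counts, defect 3 held 17703564, and the normal libraries held 17375064 to 17580898. Levels below are CPM, counts scaled to the library total, in library order, and 3 counts, taken as a floor, stood at 14.4, 12 and 0.169 CPM in defect 1, 2 and 3. The 1645 genes with a mean of at least 100 CPM in defect and counts in all 3 defect libraries were compared. Their median log2 ratio to defect 3 was 0.01 in both shallow libraries. The spread over genes was 0.25 and 0.22 (scaled median absolute deviation, which gives little weight to outlying genes). The trimmed mean of M-values (TMM), the scaling behind the fold changes, gave factors of 0.994 and 0.964 to the shallow libraries and 0.816 to defect 3, under which the median log2 ratios of the same genes to defect 3 were -0.28 and -0.23. List counts without defect 3 were therefore made at its factor, a choice made after seeing the data. With all libraries thinned to the shallowest total, the chi-square per degree of freedom over genes was 1.22 between defect 1 and 2, 1.09 between each of them and defect 3, and 1.045 to 1.088 between normal libraries. The labels do not say whether the shallow libraries were deposited whole or come from tissue other than that of defect 3. Their closeness to defect 3 is therefore not shown to be independent replication.

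**Figure D1:**
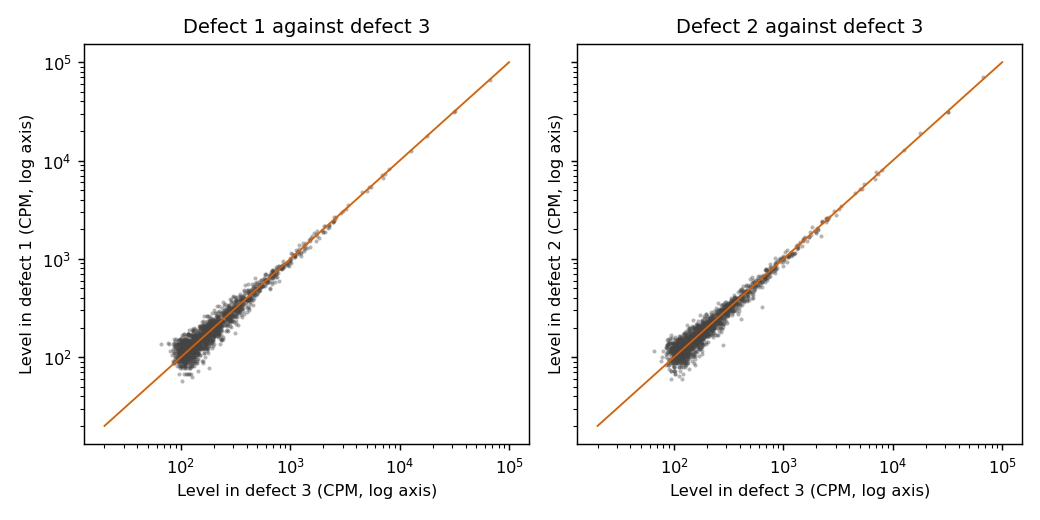
Level in defect 1 (left) and defect 2 (right) against the level in defect 3, in CPM on log axes, for genes with a mean of at least 100 CPM in defect. The line marks equal levels, and the points lie around it at all levels. The median log2 ratio was 0.01 in both panels, over the 1645 such genes with counts in all 3 defect libraries.

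The 4 genes that mark the contrast separated all 3 defect libraries from all 3 normal ones, and smooth muscle genes were well detected in both groups. COL1A1, a chain of collagen I, stood at 66054, 71053 and 66555 CPM in defect 1, 2 and 3 and at 9152, 8923 and 8661 CPM in normal 1, 2 and 3. COL3A1, the collagen III chain, stood at 31694, 30978 and 32179 CPM in defect 1, 2 and 3 and at 3376, 3477 and 3514 CPM in normal 1, 2 and 3. LYZ, the bacteriolytic enzyme lysozyme made by macrophages and neutrophils, stood at 149, 144 and 165 CPM in defect 1, 2 and 3 and at 0.683, 1.14 and 1.67 CPM in normal 1, 2 and 3. For all 3 genes the shallow libraries lay with defect 3, far above normal. NOS3, the endothelial nitric oxide synthase, stood at 81.8, 95.9 and 100.3 CPM in defect 1, 2 and 3 and at 343, 335 and 325 CPM in normal 1, 2 and 3, with every defect library below every normal one. The smooth muscle actin ACTA2 stood at 582, 539.6 and 587 CPM in the defect libraries and 796, 799.8 and 780.1 CPM in the normal ones. The smooth muscle myosin MYH11 stood at 977, 1079 and 992 CPM in the defect libraries and 1317, 1309 and 1304 CPM in the normal ones. In plain CPM both lay lower in all defect libraries, but in the TMM-scaled fit neither passed (log2 fold change -0.15, adjusted p = 0.103, and -0.10, adjusted p = 0.269, by edgeR). Library size alone gave -0.45 and -0.38, both lower, and without defect 3 both passed with re-estimated factors (-0.38 and -0.23) and neither with the factor of defect 3 (-0.12 and 0.04). Of the other smooth muscle markers, CNN1, calponin, fell (-0.60, where a number in parentheses after a gene is its log2 fold change). DES, the muscle filament protein desmin, rose by 0.27 in the fit while its CPM overlapped between groups, and it turned to -0.08 with library size alone. Without defect 3 DES passed neither with re-estimated factors (0.12) nor with the factor of defect 3 (0.39).

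In edgeR's quasi-likelihood test, 11407 of 17855 genes (63.9%) passed an adjusted p of 0.05 after Benjamini-Hochberg correction. In defect 5715 were higher (32%) and 5692 lower (31.9%), and these shares are the background for the counts given below. At least 2-fold, 2144 were higher (12%) and 2417 lower (13.5%). The median log2 fold change of all tested genes was -0.05. It moved to -0.41 with library size alone as the scaling, where 3456 genes were higher (19.4%) and 8894 lower (49.8%), so the sign of a small positive log2 fold change depends on the scaling. Each list count below is followed by the counts without defect 3 and, read against the last 2 shares, the counts with library size alone. Defect 1 and 2 alone, at the TMM factor of defect 3, gave 1936 genes higher (10.6%) and 1241 lower (6.82%). With re-estimated factors they gave 1391 higher and 2130 lower, with a median log2 fold change of -0.43. Which direction held more genes without defect 3 thus depended on the factor. Defect 3 alone, with its spread assumed equal to that of the other groups, gave 6038 and 5517. Of the 4563 genes at 50 CPM or more in all libraries of 1 group, 3586 (78.6%) had no overlap between the groups.

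**Figure D2:**
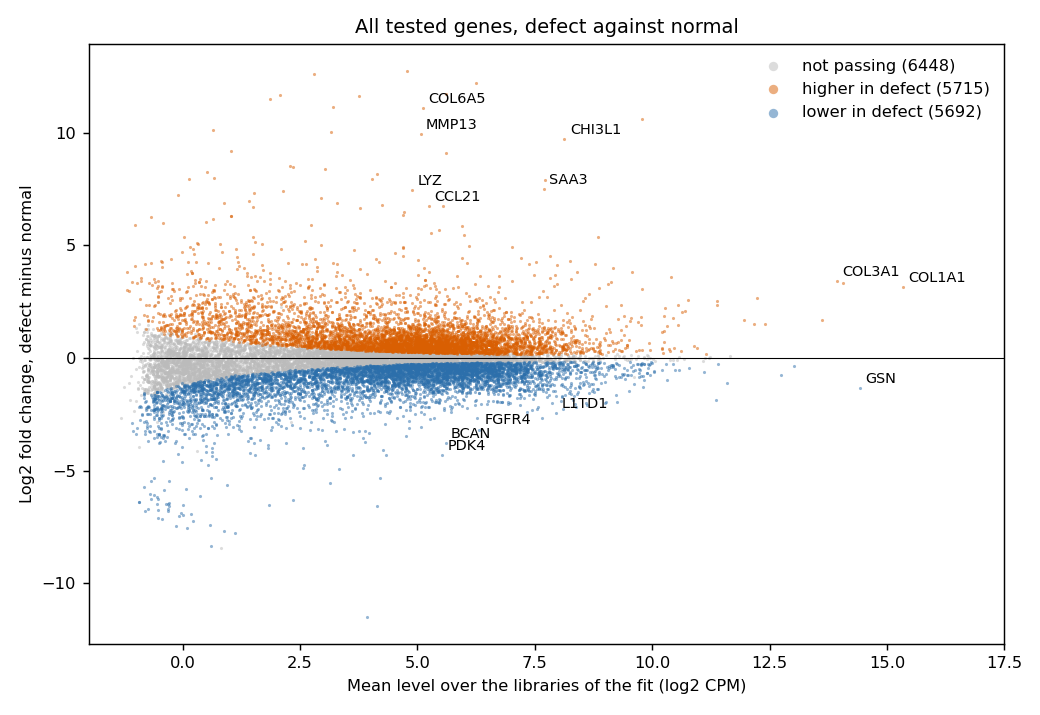
Log2 fold change (defect minus normal) of the 17855 tested genes against their mean level (log2 CPM), with the called genes in colour and the named largest changes labelled. The 5715 higher and 5692 lower genes lie on both sides of 0, and the labelled genes with a symbol range from PDK4 at -4.31 to COL6A5 at 11.098. Called genes at the left edge have few counts, and their fold changes rest mostly on defect 3.

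A few transcripts took much of the shift in counts. COL1A1, COL1A2 and COL3A1 together took 12.89%, 13.34% and 13.04% of the counts of defect 1, 2 and 3 and 1.599%, 1.599% and 1.583% of those of normal 1, 2 and 3. The 8 genes with the largest gain of mean CPM were these 3, SPARC (1.67, a collagen-binding glycoprotein), COL6A3 (2.66, a collagen VI chain), FN1 (2.53, fibronectin), BGN (1.5, the proteoglycan biglycan) and LOC100623720 (1.53), which the files do not name further. Together they took 3.10 ± 0.058% of counts in normal and 17.67 ± 0.32% in defect (SD, n = 3). The 8 genes with the largest loss took 7.33 ± 0.15% in normal and 3.12 ± 0.037% in defect. Among them were GSN (-1.35), the symbol of gelsolin, though the RefSeq record that matched it is typed as a long noncoding RNA, VIM (-0.74), the filament protein vimentin, APOE (-1.87), the lipid carrier apolipoprotein E, and PLEC (-0.61), the cytoskeletal linker plectin. GSN stood at 12413, 12663 and 12716 CPM in defect 1, 2 and 3 and at 38387, 37484 and 36052 CPM in normal 1, 2 and 3, so that each defect library held well under the level of any normal one.

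The largest rises were of matrix, protease and defence genes with low levels in normal tissue. Named by rule were the 12 genes with the largest fitted rise among those with a gene symbol, no overlap between groups and at least 50 CPM in every defect library: COL6A5, MMP13, CHI3L1, ADAMDEC1, SAA3, LYZ, MMP9, TNN, CCL21, MASP1, MMP3 and MMP1. COL6A5, a chain of collagen VI (chromosome 13, 2029543 to 2174404 on Sscrofa11.1), stood at 298, 256 and 202 CPM in defect 1, 2 and 3 and at 0.114, 0.172 and 0.0575 CPM in normal 1, 2 and 3, a log2 fold change of 11.098 with an SE of 0.632 (adjusted p = 8.64e-69). CHI3L1, a chitinase-like glycoprotein of macrophages and matrix-producing cells (chromosome 9, 113885541 to 113895033), stood at 1381, 1283 and 1362 CPM in defect 1, 2 and 3 and at 1.42, 2.63 and 1.73 CPM in normal 1, 2 and 3, a log2 fold change of 9.72 with an SE of 0.189 (adjusted p = 8.56e-69). SAA3, an acute phase serum amyloid A (chromosome 2, 41021349 to 41025950), stood at 905, 1051 and 1012 CPM in defect 1, 2 and 3 and at 7.11, 7.95 and 5.12 CPM in normal 1, 2 and 3, a log2 fold change of 7.50 with an SE of 0.119 (adjusted p = 4.87e-58). That no defect library overlapped a normal one was required by the rule. COL6A5 ran from 298 CPM in defect 1 down to 202 CPM in defect 3. ADAMDEC1, a secreted metalloprotease of macrophages and dendritic cells, stood at 207, 288 and 283 CPM in defect 1, 2 and 3 and at 0.398, 0.743 and 0.748 CPM in normal 1, 2 and 3, a log2 fold change of 9.09 with an SE of 0.29 (adjusted p = 1.95e-65). TNN, the matrix glycoprotein tenascin N, stood at 231, 188 and 229 CPM in defect 1, 2 and 3 and at 2.79, 3.26 and 1.73 CPM in normal 1, 2 and 3, a log2 fold change of 6.77 with an SE of 0.163 (adjusted p = 2.74e-57). Both were high in all defect libraries, as the rule required. Outside this rule because it has no symbol, and chosen after its values were seen, LOC396781, which RefSeq lists under the synonym IGHG, the immunoglobulin gamma heavy chain, stood at 3230, 3198 and 3226 CPM in defect 1, 2 and 3 and at 1.93, 2.74 and 2.53 CPM in normal 1, 2 and 3. Immunoglobulin constant regions are encoded by a set of nearly identical genes, so reads may have been split among them and this level is uncertain.

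**Figure D3:**
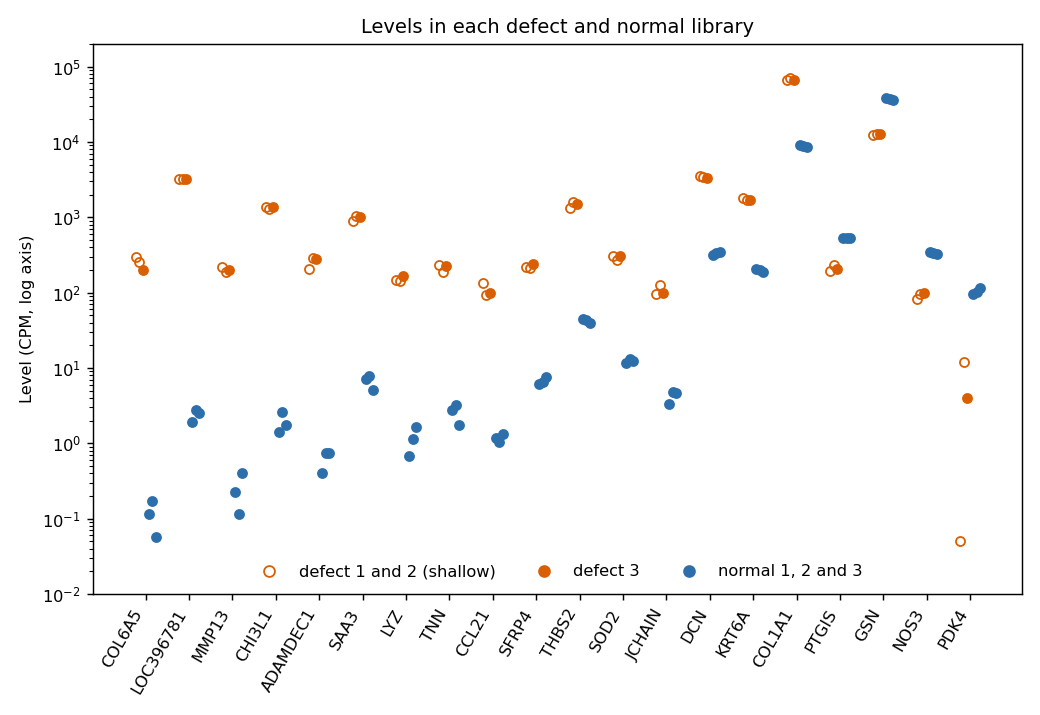
Level in CPM (log axis, with 0 counts drawn at 0.05 CPM) of 20 genes named in the text in each of the 6 libraries, with open symbols for the shallow defect 1 and 2. In every gene shown the 3 defect symbols lie on one side of the 3 normal ones, from COL6A5, with the largest rise drawn, to PDK4, with the largest fall drawn. The rule for the largest changes required this of the genes it named.

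Beyond the collagens, most small leucine-rich proteoglycans, which coat collagen fibrils, rose. In a list of 16 tested genes that adds VCAN, ACAN and their link proteins, 15 rose and 0 fell (14 and 0 without defect 3, 15 and 1 by library size), against backgrounds of 32% and 31.9%, with a median log2 fold change of 1.80 against -0.05 over all genes. Their summed level was 17689 ± 500.1 CPM over the defect libraries and 5434 ± 74.9 CPM over the normal ones (SD, n = 3). DCN, decorin, which binds collagen I fibrils, stood at 3504, 3478 and 3333 CPM in defect 1, 2 and 3 and at 313, 337 and 348 CPM in normal 1, 2 and 3, a log2 fold change of 3.60 with an SE of 0.0759 (adjusted p = 3.48e-57). LUM, lumican, stood at 852, 835 and 775 CPM in defect 1, 2 and 3 and at 37.1, 45 and 44.8 CPM in normal 1, 2 and 3, a log2 fold change of 4.53 with an SE of 0.077 (adjusted p = 1.71e-66). The shallow libraries again lay with defect 3. ASPN (5.55), asporin, and KERA (4.44), keratocan, best known from the cornea, rose with them. BCAN, brevican, a relative of VCAN and ACAN that the list leaves out, fell (-3.79).

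Of 31 matricellular and adhesive glycoproteins, 27 rose and 3 fell (25 and 1 without defect 3, 26 and 3 by library size), with a median of 2.13 and a summed level of 37291 ± 660 CPM over the defect libraries and 12698 ± 158 CPM over the normal ones. THBS2, a thrombospondin that limits vessel growth, stood at 1333, 1575 and 1500 CPM in defect 1, 2 and 3 and at 44.4, 43.5 and 39.4 CPM in normal 1, 2 and 3, a log2 fold change of 5.39 with an SE of 0.0825 (adjusted p = 5.04e-66). COMP, a thrombospondin of cartilage and tendon, stood at 1107, 1063 and 1115 CPM in defect 1, 2 and 3 and at 68.8, 74 and 61.5 CPM in normal 1, 2 and 3, a log2 fold change of 4.30 with an SE of 0.0772 (adjusted p = 2.59e-60). No defect library came near a normal one for either gene. THBS1 (4.19) and TGFBI (3.68), a matrix protein induced by transforming growth factor beta, rose as well. Of 16 elastic fibre genes, 10 rose and 0 fell (11 and 0 without defect 3, 9 and 6 by library size), with a median of 0.69. The latent TGF-beta binding proteins LTBP2 (2.69) and LTBP1 (1.34), the fibrillin FBN1 (2.31) and the microfibril protein MFAP2 (1.83) rose, while elastin, ELN, stood at 1699, 1895 and 1762 CPM in the defect libraries and 2471, 2339 and 2263 CPM in the normal ones and did not pass (-0.15, adjusted p = 0.105). With library size alone ELN was lower (-0.41), and the list's median was 0.35. Among 21 basement membrane laminins and collagen IV chains, 12 rose and 8 fell (11 and 3 without defect 3, 9 and 9 by library size), and the median of 0.31 moved to 0.01 with library size alone. LAMA2 (1.34), the laminin chain of muscle, and LAMB1 (1.23) rose, as did LAMA3 (1.60), an epithelial laminin chain.

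More protease and inhibitor genes rose than fell, but the protease families went both ways. In the metalloproteinase list 30.4% fell and in the ADAM list 25.9%, near the background of 31.9%. Of 23 matrix metalloproteinases and their tissue inhibitors, 15 rose and 7 fell (12 and 3 without defect 3, 14 and 8 by library size), with a median of 1.89. MMP13, a collagenase, stood at 217, 188 and 199.9 CPM in defect 1, 2 and 3 and at 0.228, 0.114 and 0.403 CPM in normal 1, 2 and 3, a log2 fold change of 9.94 with an SE of 0.432 (adjusted p = 3.15e-68). MMP3, stromelysin, stood at 366, 312 and 285 CPM in defect 1, 2 and 3 and at 7.17, 5.43 and 6.22 CPM in normal 1, 2 and 3, a log2 fold change of 5.88 with an SE of 0.112 (adjusted p = 3.15e-68). In normal tissue both stayed below the floor of the shallow defect libraries, whose own values were well above it. The collagenase MMP1 (5.67) and the gelatinase MMP9 (6.78) rose too. Of 27 ADAM and ADAMTS proteases, 17 rose and 7 fell (13 and 4 without defect 3, 17 and 9 by library size), among them ADAMTS2 (3.55), which trims procollagen, ADAMTS12 (2.70) and ADAMTS5 (2.70), which cleaves aggrecan. Of 18 genes of the plasminogen system and serpins, 14 rose and 1 fell (11 and 1 without defect 3, 12 and 4 by library size). SERPINF1 (3.80), pigment epithelium-derived factor, SERPINE2 (3.12) and SERPING1 (1.75), the inhibitor of complement C1, rose.

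The machinery that moves secreted proteins out of the cell rose by small steps in nearly all its genes. Of 42 genes of protein translocation and export from the endoplasmic reticulum, 38 rose and 0 fell (20 and 0 without defect 3, 30 and 2 by library size), with a median of 0.75 (0.39 with library size alone), and 9 rose at least 2-fold. KDELR3 (2.03), which returns escaped chaperones, SEC24D (1.80) and SEC23A (1.64), which coat the vesicles that carry procollagen, and LMAN1 (1.60), a cargo receptor, had the smallest p-values. Lysosomal genes moved the same way. Of 39 lysosomal hydrolases and membrane proteins, 35 rose and 1 fell (28 and 0 without defect 3, 31 and 4 by library size), with a median of 1, 20 of them at least 2-fold. CTSK, the collagen-degrading cathepsin K, stood at 582, 432 and 522 CPM in defect 1, 2 and 3 and at 206, 216 and 226 CPM in normal 1, 2 and 3, a log2 fold change of 1.57 with an SE of 0.0764 (adjusted p = 2.48e-33). Every defect library exceeded every normal one. LAMP2 (2.26), LGMN (1.69), the protease legumain, and CTSS (1.88) rose, and CTSD, cathepsin D, did not pass (-0.12, adjusted p = 0.169). CTSK and MMP9 are also osteoclast genes. Of 10 osteoclast and giant cell genes, 9 rose and 1 fell (3 and 0 without defect 3, 6 and 1 by library size), including ACP5 (3.64), tartrate-resistant acid phosphatase.

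Innate defence genes were among the largest rises. Of 17 acute phase and innate defence genes, 11 rose and 4 fell (8 and 1 without defect 3, 11 and 4 by library size), with a median of 1.32. ARG1, arginase, a marker of alternatively activated macrophages in the mouse, stood at 62.6, 36 and 52.7 CPM in defect 1, 2 and 3 and at 0.114, 0.114 and 0.345 CPM in normal 1, 2 and 3, a log2 fold change of 8.38 with an SE of 0.51 (adjusted p = 1.01e-49). All defect libraries lay far above the normal ones. PTX3, a pentraxin secreted by vessel and immune cells, went the other way, at 38.5, 64 and 42.6 CPM in defect 1, 2 and 3 and at 339.8, 344 and 369.6 CPM in normal 1, 2 and 3, a log2 fold change of -2.66 with an SE of 0.0935 (adjusted p = 1.61e-41). Of 27 complement genes, 19 rose and 3 fell (15 and 0 without defect 3, 18 and 4 by library size), with a median of 1.20. C3, the central component, stood at 2642, 2618 and 2516 CPM in defect 1, 2 and 3 and at 372, 364 and 370.2 CPM in normal 1, 2 and 3, a log2 fold change of 3.05 with an SE of 0.0731 (adjusted p = 9.9e-54). C4A (4.14), C1S (2.86) and the lectin pathway protease MASP1 (6.37) rose in all defect libraries as well. CFD, complement factor D, which adipocytes secrete, did not pass (-0.15, adjusted p = 0.0781).

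Of 35 tested chemokines and chemokine receptors, 23 rose and 8 fell (8 and 2 without defect 3, 20 and 10 by library size), with a median of 1.19. CCL21, which draws dendritic cells and T cells towards lymphatic vessels, stood at 135, 91.9 and 98.7 CPM in defect 1, 2 and 3 and at 1.19, 1.03 and 1.32 CPM in normal 1, 2 and 3, a log2 fold change of 6.74 with an SE of 0.208 (adjusted p = 5.71e-61). CCL2 (4.40), which recruits monocytes, the scavenging receptor ACKR3 (3.22) and CXCL14 (1.70) rose. CCL21 is also a lymphatic marker. Of 12 lymphatic endothelial markers, 8 rose and 2 fell (6 and 1 without defect 3, 8 and 2 by library size), with PDPN (3.19), podoplanin, which fibroblasts also make, and MMRN1 (3.72) among those that rose. PROX1, the transcription factor that defines lymphatic endothelium, did not pass (0.19, adjusted p = 0.354), and the summed list stood at 834 ± 20.9 CPM over the defect libraries and 812 ± 17.2 CPM over the normal ones. Of 39 interleukin and tumour necrosis factor family signals, 27 rose and 4 fell (16 and 0 without defect 3, 25 and 9 by library size), with a median of 1.17. The receptors CSF2RB (3.11), IL4R (2.01) and IL13RA1 (1.38) and the alarmin IL33 (2.50) led by p.

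Most tested markers of antibody-making cells were higher in defect. Many of them, and most T and natural killer cell markers, had few counts in the shallow libraries. Of 19 B and plasma cell markers, 13 rose and 3 fell (7 and 0 without defect 3, 11 and 3 by library size), with summed levels of 602 to 679.5 CPM over the defect libraries and 251 to 261 CPM over the normal ones. At most 3 counts stood in both shallow libraries for 13 of the 19. JCHAIN, the chain that joins secreted antibodies, stood at 96.3, 128 and 99.9 CPM in defect 1, 2 and 3 and at 3.3, 4.8 and 4.72 CPM in normal 1, 2 and 3, a log2 fold change of 4.92 with an SE of 0.137 (adjusted p = 4.4e-55). All defect libraries lay far above normal, as they did for LOC396781. SDC1 (1.82), syndecan 1, and PRDM1 (2.80), the plasma cell factor, rose, though epithelium also makes both. SDC1 made up a large part of the sums, at 231, 232 and 238 CPM in defect 1, 2 and 3 and at 90.6, 77.7 and 85.6 CPM in normal 1, 2 and 3. Of 25 T and natural killer cell markers, 9 rose and 3 fell (0 and 0 without defect 3, 5 and 7 by library size), with summed levels of 74.5 to 83.9 CPM over the defect libraries and 90.3 to 92 CPM over the normal ones. Of these, 24 had at most 3 counts in both shallow libraries, so a change in them was not detectable there. Of 6 mast cell markers, 4 rose and 1 fell (1 and 0 without defect 3, 4 and 2 by library size), with summed levels of 48.1 to 95.9 CPM over the defect libraries and 106 to 118 CPM over the normal ones. GATA2, a factor that endothelium also makes, was most of the sum in normal, at 0, 52 and 25.4 CPM in defect 1, 2 and 3 and at 94.2, 85.1 and 81.3 CPM in normal 1, 2 and 3, and the sum without it was not lower in defect. CPA3, the mast cell carboxypeptidase, had 0 counts in defect 3. Its level in normal is not reported here, so this value alone shows no change.

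Families of secreted signals held called genes in both directions. Of 53 Wnt pathway genes, 29 rose and 10 fell (16 and 4 without defect 3, 27 and 16 by library size), with a median of 0.84. The Wnt antagonists SFRP4 and WIF1 were among the 4 members with the smallest p. SFRP4, a secreted Wnt binder, stood at 217, 212 and 240.5 CPM in defect 1, 2 and 3 and at 6.09, 6.57 and 7.54 CPM in normal 1, 2 and 3, a log2 fold change of 5.46 with an SE of 0.113 (adjusted p = 3.15e-65). WIF1, the Wnt inhibitory factor, stood at 380.2, 239.8 and 288 CPM in defect 1, 2 and 3 and at 38.4, 40.6 and 41.5 CPM in normal 1, 2 and 3, a log2 fold change of 3.19 with an SE of 0.0804 (adjusted p = 1.17e-54). DKK3 (2.04) and the ligand WNT2 (5.89) rose beside them, and for each of the 4 genes no defect library overlapped a normal one. Of 46 genes of bone morphogenetic protein, activin and TGF-beta signalling, 27 rose and 7 fell (12 and 3 without defect 3, 17 and 14 by library size), with TGFB3 (2.16), TGFB2 (2.33), GDF10 (2.50) and the BMP antagonist CHRDL1 (2.11) higher. Of 19 genes of the insulin-like growth factor system, 14 rose and 4 fell (9 and 1 without defect 3, 9 and 5 by library size). IGF1 (1.61), its binding protein IGFBP4 (1.64) and PAPPA2 (3.63) and PAPPA (3.11), the proteases that release the ligand from binding proteins, rose. Of 39 fibroblast, platelet-derived and epidermal growth factor genes, 22 rose and 7 fell (12 and 4 without defect 3, 18 and 15 by library size). PDGFD (2.51), FGF7 (2.52), keratinocyte growth factor, and the fibroblast receptor PDGFRA (1.70) rose, and FGFR4 fell (-3.18).

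Among 48 connective tissue transcription factors, 27 rose and 13 fell (11 and 6 without defect 3, 21 and 18 by library size). RUNX1 stood at 72.2, 95.9 and 89.3 CPM in defect 1, 2 and 3 and at 8.42, 9.2 and 8.81 CPM in normal 1, 2 and 3, a log2 fold change of 3.69 with an SE of 0.112 (adjusted p = 1.37e-49). MKX, mohawk, a tendon factor, stood at 111, 87.9 and 85.8 CPM in defect 1, 2 and 3 and at 10.5, 10.2 and 12.6 CPM in normal 1, 2 and 3, a log2 fold change of 3.32 with an SE of 0.107 (adjusted p = 4.03e-47). Both were higher in each defect library than in any normal one. PRRX1 (1.72), a fibroblast factor, and RUNX2 (3.26), the bone factor, rose.

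Genes that set vessel tone split. Of 40 tested vasoactive ligands and receptors, 14 rose and 15 fell (4 and 5 without defect 3, 11 and 20 by library size), near the background in both directions, with a median of -0.19. The summed level was 1068 ± 27.1 CPM over the defect libraries and 2157 ± 3.2 CPM over the normal ones (SD, n = 3). ACE, angiotensin-converting enzyme, stood at 52.9, 16 and 39.5 CPM in defect 1, 2 and 3 and at 163, 152 and 147 CPM in normal 1, 2 and 3, a log2 fold change of -1.61 with an SE of 0.0969 (adjusted p = 1.61e-26). RAMP2, the partner that lets the calcitonin receptor-like receptor bind adrenomedullin, stood at 116, 112 and 131 CPM in defect 1, 2 and 3 and at 488, 480.4 and 471 CPM in normal 1, 2 and 3, a log2 fold change of -1.54 with an SE of 0.084 (adjusted p = 1.33e-28). For both genes the defect libraries lay below all normal ones, and NPR1 (-1.88), the receptor of atrial natriuretic peptide, fell as well. CALCRL, the receptor RAMP2 partners, did not pass (0.29, adjusted p = 0.147). ADRA2A (1.80), an adrenergic receptor, rose. Of 28 prostanoid and leukotriene genes, 14 rose and 3 fell (2 and 1 without defect 3, 10 and 7 by library size). PTGIS, prostacyclin synthase of the vessel wall, stood at 192, 236 and 204 CPM in defect 1, 2 and 3 and at 534, 526 and 529 CPM in normal 1, 2 and 3, a log2 fold change of -1.02 with an SE of 0.0813 (adjusted p = 2.45e-19). The receptors PTGER2 (2.49) and PTGFR (1.52) rose.

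Genes of fuel use went both ways. Of 38 genes of fatty acid oxidation and targets of the lipid-sensing PPAR receptors, 11 rose and 19 fell (2 and 6 without defect 3, 7 and 26 by library size), with a median of -0.27. PDK4, a kinase that switches off pyruvate dehydrogenase (chromosome 9, 75246956 to 75260134), stood at 0, 12 and 3.95 CPM in defect 1, 2 and 3 and at 95.8, 101 and 114 CPM in normal 1, 2 and 3, a log2 fold change of -4.31 with an SE of 0.2 (adjusted p = 1.12e-41). All 3 defect libraries were far lower, with 0 counts in defect 1 and 3 in defect 2. CPT1A (-1.80), which admits fatty acids to mitochondria, fell in all defect libraries too. Of 35 glycolysis and hypoxia genes, 20 rose and 10 fell (14 and 3 without defect 3, 14 and 16 by library size), and the median turned from 0.24 to -0.08 with library size alone. HIF1A (1.86), the oxygen-sensing factor, LDHA (1.45), lactate dehydrogenase, and the lactate carrier SLC16A1 (2.31) rose, and ALDOC (-2.25), an aldolase, fell. HIF3A, another alpha subunit of that factor family, stood at 4.81, 0 and 11.6 CPM in defect 1, 2 and 3 and at 79.9, 79.2 and 70 CPM in normal 1, 2 and 3, a log2 fold change of -2.38 with an SE of 0.141 (adjusted p = 2.61e-27), lower in all defect libraries. It had only 1 and 0 counts in defect 1 and 2, under the floor, so the fitted value rests mostly on defect 3. Of 25 tricarboxylic acid cycle genes, 14 rose and 3 fell (0 and 3 without defect 3, 6 and 9 by library size), and the median turned from 0.33 to -0.03. PC (-1.90), pyruvate carboxylase, fell. Of 67 nuclear-encoded respiratory chain subunits, 30 rose and 9 fell (7 and 2 without defect 3, 11 and 25 by library size), and the median turned from 0.21 to -0.15, so no direction held under both scalings for these last 3 lists.

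Ribosomal proteins fell together. Of 76 cytosolic ribosomal protein genes, 0 rose and 65 fell (1 and 40 without defect 3, 0 and 76 by library size), with a median of -0.37, and 1 fell at least 2-fold. Their summed level was 31565 ± 482 CPM over the defect libraries and 51962 ± 542 CPM over the normal ones. RPS14 stood at 433, 528 and 451 CPM in defect 1, 2 and 3 and at 1435, 1372 and 1348 CPM in normal 1, 2 and 3, a log2 fold change of -1.28 with an SE of 0.0843 (adjusted p = 4.6e-24). RPS9 (-0.90) and RPLP2 (-0.86) also lay lower in every defect library. Beside this list, the ribosomal RNA gene RN18S, which selection of polyadenylated RNA should largely remove, took 0.205%, 0.170% and 0.221% of counts in defect 1, 2 and 3 and 0.498%, 0.566% and 0.494% in normal 1, 2 and 3. Its part in the result was not tested. Ribosomal protein genes have many processed copies in the genome that can share reads, so single values are uncertain. Of 38 translation factors, 21 rose and 11 fell (12 and 6 without defect 3, 9 and 17 by library size). EIF5 (1.15), EIF3A (1.06) and EIF4G2 (1.01) of initiation rose, and the elongation factors EEF1A1 (-0.34) and EEF2 (-0.26) fell. The list's median turned from 0.24 to -0.08 with library size alone, while the elongation factors were lower under both scalings. Without defect 3, at its factor, EEF2 did not pass (-0.12).

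Markers of cell types other than muscle, endothelium and fibroblasts were counted against the same backgrounds of 32% and 31.9%. Of 27 squamous epithelium markers, 21 rose and 4 fell (14 and 2 without defect 3, 20 and 5 by library size), with summed levels of 5484 to 5843 CPM over the defect libraries and 2698 to 2810 CPM over the normal ones. KRT6A, a keratin of wounded and mucosal epithelium, stood at 1810, 1683 and 1699 CPM in defect 1, 2 and 3 and at 206, 198 and 188 CPM in normal 1, 2 and 3, a log2 fold change of 3.38 with an SE of 0.0735 (adjusted p = 3.16e-57). DSG3 (2.34) and DSC2 (2.14), of the desmosome, and PERP (1.88) rose. All squamous markers tested had counts in defect 3. Their part in the rises of LAMA3, SDC1 and other genes that epithelium makes was not tested. Of 17 adipocyte markers, 3 rose and 10 fell (1 and 4 without defect 3, 2 and 13 by library size), with summed levels of 669 to 699.5 CPM over the defect libraries and 1197 to 1278 CPM over the normal ones. PLIN1 (-2.81), which coats the lipid droplet, and PNPLA2 (-1.54), the lipase that opens it, fell, and SCD (1.89), which desaturates fatty acids, rose. Their part in the falls of fatty acid oxidation genes was not tested. Of 31 secretory gland epithelium markers, 6 rose and 17 fell (3 and 3 without defect 3, 5 and 19 by library size), with summed levels of 348 to 399.5 CPM over the defect libraries and 415 to 420.2 CPM over the normal ones, and 13 of the falls were at least 2-fold. AQP5 (-2.65), a water channel of glands, fell, and the cadherin CDH1 (1.60), which squamous cells share, rose. Of 41 motile cilium genes, 4 rose and 16 fell (1 and 2 without defect 3, 2 and 22 by library size), with summed levels of 145 to 159.9 CPM over the defect libraries and 275 to 280.2 CPM over the normal ones. Of these, 37 had at most 3 counts in both shallow libraries. FOXJ1, the master factor of motile cilia, had 0 counts in defect 3, but its level in normal is not reported here. Of 7 erythroid and platelet markers, 0 rose and 5 fell (0 and 1 without defect 3, 0 and 5 by library size), with summed levels of 32 to 43.3 CPM over the defect libraries and 102 to 108 CPM over the normal ones, of 13 skeletal muscle markers 1 rose and 4 fell (0 and 0 without defect 3, 1 and 6 by library size), with summed levels of 33.7 to 52 CPM over the defect libraries and 79.7 to 92.7 CPM over the normal ones, and of 10 melanocyte markers 2 rose and 2 fell (0 and 0 without defect 3, 1 and 3 by library size), with summed levels of 32 to 51.9 CPM over the defect libraries and 61.8 to 63.8 CPM over the normal ones. The called shares of skeletal muscle markers (7.69% higher and 30.8% lower) and of melanocyte markers (20% each way) lay below the backgrounds. Most tested markers of 4 further lists also had at most 3 counts in both shallow libraries. They were 6 of the erythroid and platelet, 12 of the skeletal muscle, 9 of the melanocyte and 23 of the secretory gland markers. Their calls rest mostly on defect 3. Of the 28 skeletal muscle markers in the table, 8 had 0 counts in defect 3, ACTA1 and MYOD1 among them, and 2 had 0 in all normal libraries. Normal levels of ACTA1 and MYOD1 are not reported here, so their 0 counts alone show no change. SAA3, C4A, KRT6A and CCL21 have close paralogs that can share reads, so their own levels are uncertain.

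**Figure D4:**
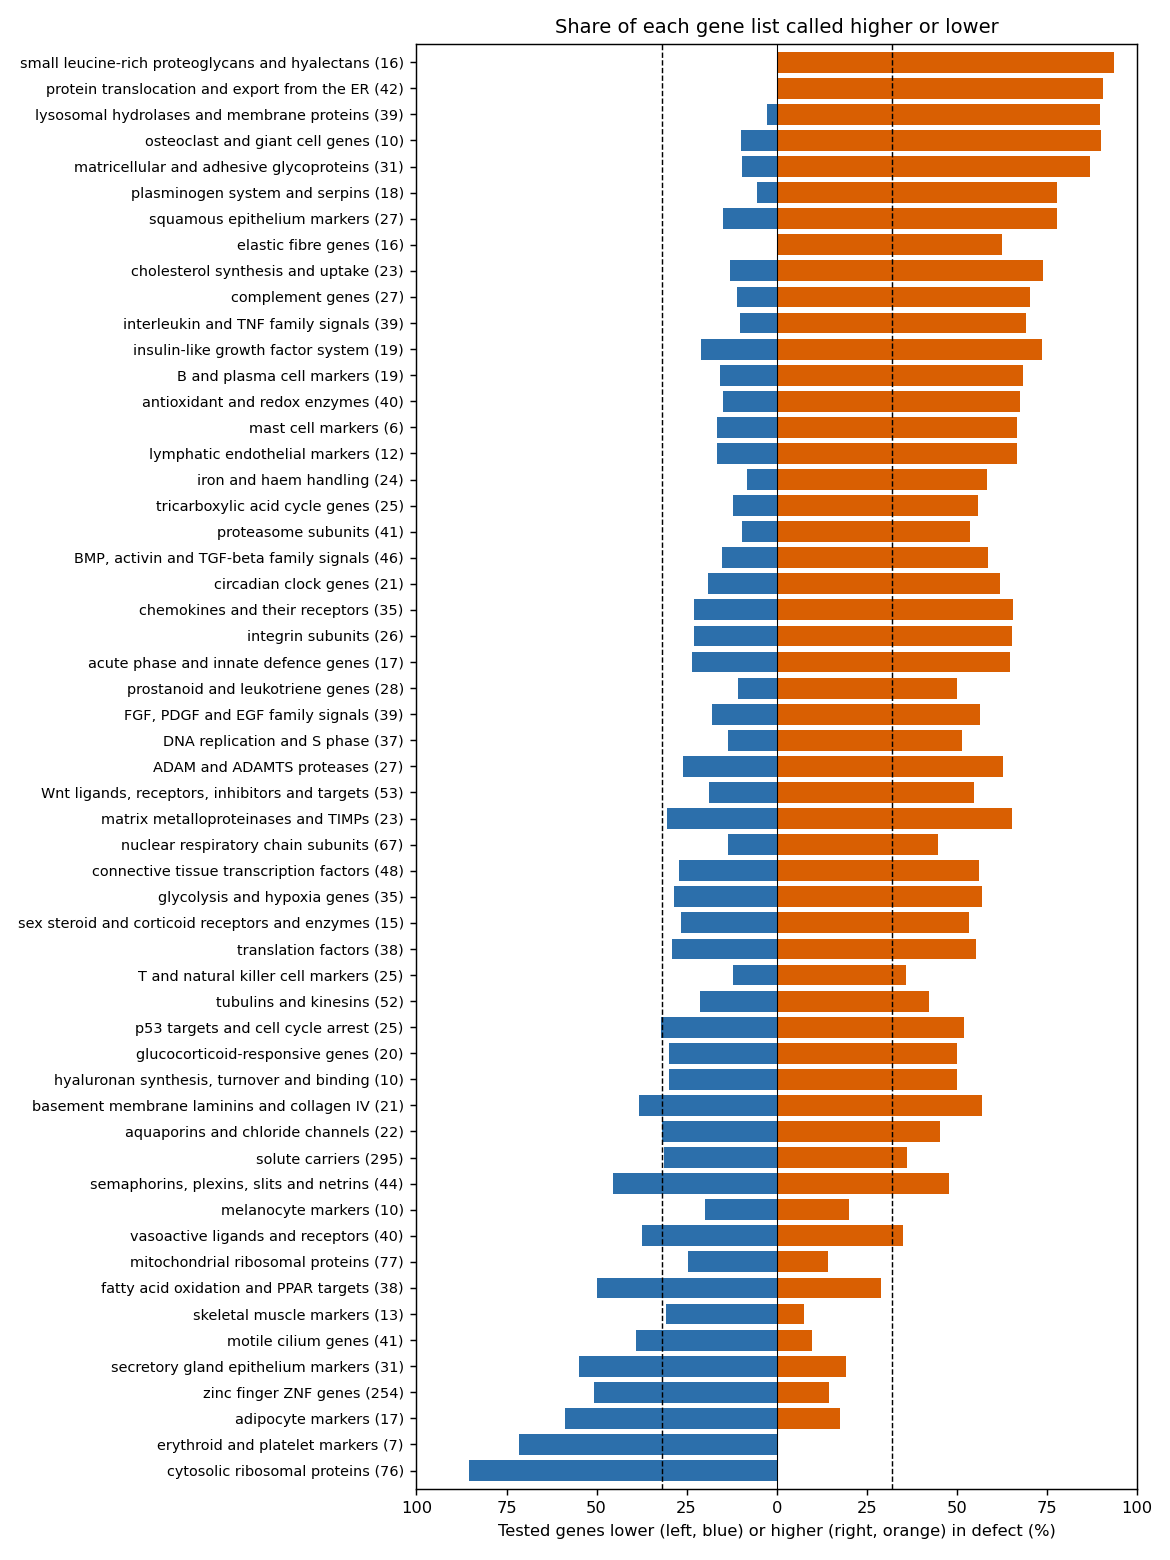
Percent of the tested genes of each list that were higher (right, orange) or lower (left, blue) in defect at an adjusted p under 0.05, with the number tested after each name. Dashed lines mark the background over all tested genes, 32% higher and 31.9% lower. The list of small leucine-rich proteoglycans, VCAN, ACAN and link proteins and that of export from the endoplasmic reticulum reach over 90% higher and cytosolic ribosomal proteins 85.5% lower.

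The 12 largest falls, named by the same rule with the level asked of the normal libraries, were PDK4, BCAN, OPRL1, FGFR4, PCNX2, COLCA2, GDF1, PTX3, TMEM200C, L1TD1, MCF2L and HIF3A, with log2 fold changes from -4.31 to -2.38. They were smaller in size than the rises. L1TD1, an RNA-binding protein derived from a mobile element, stood at 52.9, 68 and 61.5 CPM in defect 1, 2 and 3 and at 395, 427 and 466 CPM in normal 1, 2 and 3, a log2 fold change of -2.44 with an SE of 0.0915 (adjusted p = 3.07e-39). GDF1, a ligand of the TGF-beta superfamily, stood at 14.4, 24 and 16 CPM in defect 1, 2 and 3 and at 136, 129.9 and 130.4 CPM in normal 1, 2 and 3, a log2 fold change of -2.66 with an SE of 0.115 (adjusted p = 1.58e-37). OPRL1, the nociceptin receptor, stood at 0, 0 and 3.79 CPM in defect 1, 2 and 3 and at 53.8, 53.5 and 50.6 CPM in normal 1, 2 and 3, a log2 fold change of -3.46 with an SE of 0.215 (adjusted p = 2.08e-31). The defect libraries lay below all normal ones in each case, as the rule required. OPRL1 had 0 counts in defect 1 and 2, which allows up to 14.4 and 12 CPM, still under the normal levels. BCAN, known from brain, and MCF2L fell (-3.79 and -2.42), BCAN with only 1 count in each of defect 1 and 2. Among the 8 genes that lost most CPM, LOC102158401 and RN18S had wide errors (-1.46 ± 0.273 and -1.09 ± 0.224 SE), and neither passed without defect 3 at its factor (-1.72 and -1.09). Without defect 1 and 2 RN18S did not pass either (-0.84).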

How the data were processed

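Polyadenylated RNA was sequenced from TruSeq (v2 kit) libraries, per the labels' protocols. Tools in the submitters' processing notes are fastp, HISAT2 and HTSeq, beside DESeq2 and the build Sscrofa11.1, while versions, strand settings and the making of the TPM values are not given in the sources used here. Reads of overlapping and antisense genes therefore cannot be told apart. The authors deposited raw gene counts and TPM values for the same 26654 genes.

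From the counts, genes were kept by filterByExpr, scaled by TMM factors and tested with edgeR 4.0.16 (glmQLFit, robust, and glmQLFTest, two-sided, Benjamini-Hochberg adjustment, threshold 0.05) in R 4.3.3, in 1 fit of the 9 libraries of implantation A, defect and normal, which share the estimate of the spread. Implantation A enters no comparison here. SEs come from the curvature of the fitted model. Levels are CPM of library totals without TMM factors. Totals ran from 207769 to 17703564, and floors cover counting error only. Coordinates are those of RefSeq genes on that build, where 99.9% of the symbols were found, and 36.7% are numbered LOC entries.

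The members and the 55 gene lists were chosen with earlier results of these data known. Named were the 4 markers, the 12 largest changes each way (symbol, no overlap, at least 50 CPM in each library of the higher group), the 8 largest gains and 8 largest losses of mean CPM, and of each list up to 4 passing members with the smallest p and up to 2 abundant ones that did not pass. Markers of smooth muscle and genes of a list at 0 counts were also named. Alternatives used DESeq2 1.42.0, limma 3.58.1 (voom, and trend on log2(TPM + 1) or log2(TPM + 0.1)), other scalings and filters, thinning, a replicate block and fits without libraries. The fits that give defect 1 and 2 the TMM factor of defect 3 were added after seeing the data. The scripts were tested on simulated data with 200 changed genes. With so few changes, that test cannot check the scaling under a shift as broad as the one here. Some results for single genes are not reported here.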

Additional observations from a re-analysis of the deposited data

How the results depend on the processing

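The count of changed genes kept within 1.5 times of 11407 with library size alone, other filters, a fit of 6 libraries, an adjusted p under 0.01, TPM without a filter, the factor of defect 3 for all defect libraries, and without defect 1 and 2 (11555). It was 7436 with DESeq2, 5353 with limma-voom and quality weights, 6747 and 6386 with log2(TPM + 1) and log2(TPM + 0.1), 2284 with every library thinned to 207769 counts, where only 5605 genes could be tested, and 3177 without defect 3 at its factor. At least 2-fold, the last 2 settings gave 1368 and 2266 against 4561. Leaving out 1 library at a time gave 3521 to 11950 genes, and 2446 to 4805 at least 2-fold, and in both cases the lowest count was without defect 3. Of 3281 recomputed fold changes of 165 named genes, 3215 kept their direction and their side of the threshold, 17 no longer passed, 37 newly passed and 12 turned sign. Turned were genes near 0: CALCRL to -0.07 and DES to -0.08 with library size alone, DES to -0.09 when thinned, MYH11 to 0.04 without defect 3 at its factor, and PROX1 to -0.19 with library size alone, -1.13 without defect 3 (the lowest of -1.13 to 0.33 on leaving out 1 library) and -0.87 at its factor, -0.38 with limma-voom, -0.04 with DESeq2, and -0.61, -1.58 and -0.61 with log2(TPM + 1), log2(TPM + 0.1) and log2(TPM + 1) without a filter. The cause was not tested.

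Deviations of same-numbered defect and normal libraries from their group means showed little correlation (r of -0.122, -0.0279 and -0.0383 across 1897 genes). Counting noise in the shallow defect libraries can hide a shared deviation, so the check cannot decide whether equal numbers mark a shared animal or batch. With the replicate number as a block, 10663 genes changed, 4493 of them at least 2-fold.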

Other observations

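Lists of regulatory, adhesion and transport genes not described above held called genes in both directions. Of 254 tested zinc finger genes with a ZNF symbol, 37 rose and 129 fell (6 and 20 without defect 3, 10 and 187 by library size), with a median log2 fold change of -0.37, where 31.9% of all tested genes fell. Of these, 105 had at most 3 counts in both shallow libraries. ZNF276 (-1.45) and ZNF467 (-1.94) led by p. Of 295 solute carriers, 107 rose and 92 fell (28 and 19 without defect 3, 71 and 144 by library size), near the background both ways in the TMM-scaled fit. SLC39A14 (2.04), a zinc and manganese importer, SLC41A2 (2.49) and the taurine carrier SLC6A6 (2.43) rose. Of 44 semaphorin, plexin, slit and netrin genes, 21 rose and 20 fell (14 and 8 without defect 3, 18 and 23 by library size). The guidance ligands SEMA3D, at 259.9, 236 and 221 CPM in defect 1, 2 and 3 and at 18.7, 22.8 and 27.2 CPM in normal 1, 2 and 3, and SEMA3C (3.23) rose without overlap. Of 26 integrin subunits, 17 rose and 6 fell (10 and 1 without defect 3, 14 and 8 by library size), with ITGA11 (3.32), a collagen receptor subunit of fibroblasts, and ITGB1 (1.46) higher. Of 10 hyaluronan genes, 5 rose and 3 fell (3 and 1 without defect 3, 5 and 5 by library size), with CEMIP (1.78), which degrades hyaluronan, and CD44 (1.32), the hyaluronan receptor, higher. Of 22 aquaporins and chloride channels, 10 rose and 7 fell (5 and 2 without defect 3, 8 and 11 by library size), and AQP1, the water channel of endothelium, stood at 1155, 1067 and 1180 CPM in defect 1, 2 and 3 and at 455, 457 and 428 CPM in normal 1, 2 and 3, against the direction of NOS3. The list's median turned from 0.23 to -0.14 with library size alone.

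Stress, hormone and housekeeping lists held called genes in both directions. Of 40 antioxidant and redox enzymes, 27 rose and 6 fell (10 and 3 without defect 3, 18 and 11 by library size). SOD2, mitochondrial superoxide dismutase, which inflammatory signals induce, stood at 308, 268 and 310.5 CPM in defect 1, 2 and 3 and at 11.6, 13.2 and 12.4 CPM in normal 1, 2 and 3, a log2 fold change of 4.96 with an SE of 0.0957 (adjusted p = 2.78e-65), with no overlap. Of 24 iron and haem genes, 14 rose and 2 fell (8 and 1 without defect 3, 12 and 7 by library size). CD163 (1.78), the haemoglobin scavenger of macrophages, and CYBRD1 (1.61) rose. Of 21 clock genes, 13 rose and 4 fell (5 and 1 without defect 3, 9 and 6 by library size), with BHLHE40 (2.13) and NR1D2 (1.52) higher. Of 20 glucocorticoid-responsive genes, 10 rose and 6 fell (7 and 5 without defect 3, 10 and 10 by library size), and of 15 steroid receptors and enzymes 8 rose and 4 fell (4 and 0 without defect 3, 5 and 5 by library size). HSD11B1 (2.48), which makes active cortisol, rose. Of 23 cholesterol genes, 17 rose and 3 fell (5 and 1 without defect 3, 13 and 3 by library size), of 25 p53 target and arrest genes 13 rose and 8 fell (4 and 1 without defect 3, 8 and 10 by library size), and of 37 DNA replication genes 19 rose and 5 fell (3 and 0 without defect 3, 11 and 11 by library size). Of 41 proteasome subunits, 22 rose and 4 fell (5 and 1 without defect 3, 10 and 18 by library size), of 52 tubulins and kinesins 22 rose and 11 fell (10 and 5 without defect 3, 15 and 22 by library size), and of 77 mitochondrial ribosomal proteins 11 rose and 19 fell (1 and 0 without defect 3, 0 and 45 by library size). The medians of the proteasome and the tubulin list turned from 0.29 and 0.23 to -0.08 and -0.14 with library size alone, so neither had a direction that held under both scalings. Those of the p53 and the DNA replication list moved from 0.42 and 0.46 to 0.06 and 0.10. That of the mitochondrial ribosomal proteins moved from -0.04 to -0.40, and in the TMM-scaled fit their called shares lay below the background both ways.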
